A study of Mus musculus with 24 samples.

Results

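The 9 features described here are annotated pseudogenes and transcripts without an established name, out of 33364 features listed in each of 4 count tables. They were taken by symbol from a list chosen by the deposited counts themselves, because some pools showed many counts and others none, so the counts below are given as a description. Gm6565 and Gm5641 are annotated as processed pseudogenes, Pisd-ps1 as an unprocessed pseudogene, and Gm26508 and Gm26723 as long intergenic non-coding RNAs. Gm27177 is annotated as antisense, and B430305J03Rik, Gm37240 and AC149090.1 as protein coding. The pattern that named the list held for 7 of the 9, because AC149090.1 and Pisd-ps1 were counted at 87 or more in every library.

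RNA was sequenced from 2 cortical regions of C57BL/6 mice aged 3 months, the medial prefrontal cortex (mPFC) and the neighbouring anterior cingulate cortex (ACC), 2 weeks after surgery. The strain is spelled as in the labels, and the methods of the study name the substrain C57BL/6J. In spared nerve injury (SNI), a model of neuropathic pain, some branches of the sciatic nerve on the left side are tied and cut and another is left intact, and sham surgery exposed the nerve without injuring it. Female and male mice, both regions and both treatments gave 8 groups of 3 libraries, 24 in all, and no group carried a transgene or a drug. Several animals were pooled for every library, so the pool was the replicate and a value reports the mixture of tissue punches in it. Libraries held 23853845 to 32864391 counts, and a count of 0 allowed up to 3 counts, or 0.0904 to 0.126 on the scale of counts scaled for library size (CPM). A feature is called present below in a library with more than 3 counts. Markers of cortical excitatory neurons summed to between 1840 and 2400 CPM in every library, and Xist and 4 Y-linked genes matched the labelled sex of all 24 pools. Summed choroid plexus markers reached 939 CPM in pool 1 of the female sham ACC against a median of 4.88 CPM, and summed hepatocyte markers reached 35.8 CPM in pool 1 of the male SNI ACC. Oligodendrocyte markers ranged from 817 to 3060 CPM over the libraries. The part of these differences in the counts of the members was not tested.

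A processed pseudogene arises when a messenger RNA is copied back into DNA and inserted elsewhere in the genome, so a young copy carries nearly the same letters as its parent gene and lacks the introns. An antisense transcript shares letters with a gene on the other strand, and an overlapping transcript can share them with a gene on either strand. For copies and overlapping transcripts alike, a short read can match more than 1 annotated gene. How the aligner or the counter treats such a read decides which row of a table receives it.

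The sequence of Gm6565 shows how close such copies are. Gm6565 lies on chromosome 6 at 100604683 to 100605120, plus strand (GRCm38), 438 bases in length, within Shq1 on the opposite strand. It is a copy of Ube2v2, a ubiquitin-conjugating enzyme variant that takes part in DNA damage tolerance. Bases 61 to 120 of the pseudogene (chr6:100604743-100604802, plus strand) are printed with the matching stretch of the parent transcript and of 3 further copies, with capitals for letters that differ from Gm6565. Sequences are from the GENCODE transcripts of release M21. The stretches lie at chr15:31446698-31446757 (Gm6361), chr4:12131859-12131918 (Gm11843) and chr2:77256304-77256363 (Gm13650), each on the minus strand, and Ube2v2 lies on the minus strand of chromosome 16 between 15552077 and 15595773.
Gm6565: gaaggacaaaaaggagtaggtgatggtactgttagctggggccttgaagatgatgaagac
Ube2v2: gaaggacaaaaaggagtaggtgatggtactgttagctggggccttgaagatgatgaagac
Gm6361: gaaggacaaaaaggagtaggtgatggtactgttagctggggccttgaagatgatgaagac
Gm11843: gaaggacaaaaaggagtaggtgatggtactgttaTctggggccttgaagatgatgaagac
Gm13650: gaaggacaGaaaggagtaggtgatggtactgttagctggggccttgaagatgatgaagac
Over its whole length Gm6565 was identical to Ube2v2, and Gm6361 aligned over 435 bases at 100% identity. Gm11843 and Gm13650 were 95.4% and 93.8% identical and had 0 to 3 counts in every library, while Gm6565 and Gm6361 reached 155 and 192.

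To describe this for the other members, every stretch of 150 bases, the read length of the study, was taken from each member's transcripts and looked up in the transcripts of all other genes. For Gm6565, Gm5641, Gm27177 and B430305J03Rik, 100% of these windows occurred exactly in another gene. The share was 96.6% for Gm26723, 89.3% for Gm26508 and 51.1% for Gm37240, and it was 0% for Pisd-ps1. AC149090.1 had no transcript sequence in the reference used here, so the 0% for Pisd-ps1 leaves out any windows shared with AC149090.1. Pisd-ps1 aligned with Pisd over 100% of its length at 94.1% identity.
The genes that held the windows differed in kind. Gm5641 shared all of its windows with Hnrnpa3, which encodes a nuclear RNA-binding protein, and some of them with 17 further genes, most of them pseudogenes. Gm27177 shared all of its windows with Gm16867 on the same strand of chromosome 14. B430305J03Rik shared its windows with a gene on the opposite strand at the same locus, Rap2b, which encodes a small GTPase. Gm37240 spans 1391093 bases of chromosome 3 and shared 44.3% of its windows with Arfip1, 5.12% with Glt28d2 and 1.67% with Fam160a1, genes that overlap it on the same strand.

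**Figure D1:**
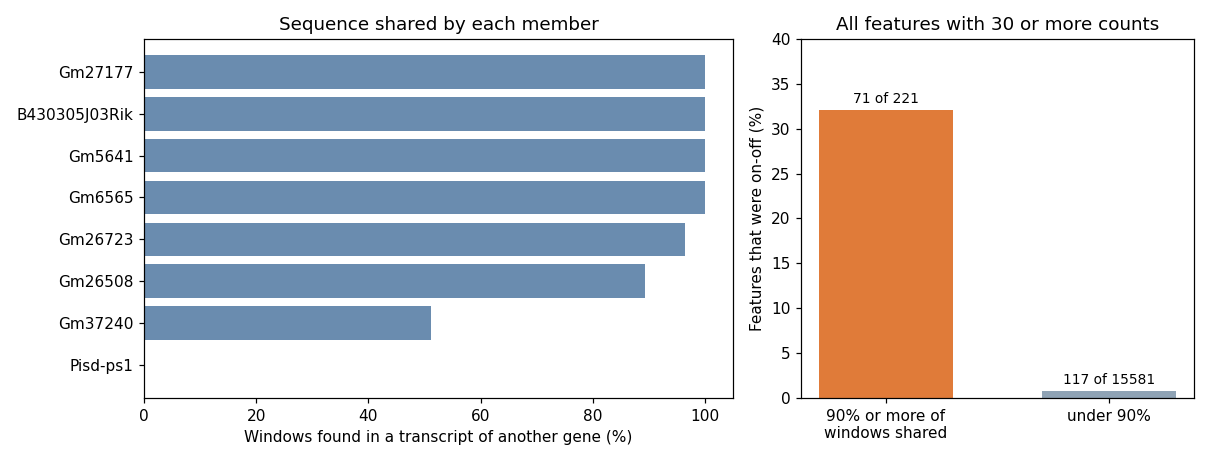
Left, the percentage of 150-base windows of each member with a transcript sequence that occurred exactly in a transcript of another gene (horizontal axis, percent), from 0 for Pisd-ps1 to 100 for 4 members. Right, the percentage of on-off features (vertical axis) among all features with at least 30 counts in 1 library, split by whether at least 90% of their windows were shared. The bar for shared sequence stands at 32.1% and the other at 0.751%.

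The members were set against the whole table in the same way. A feature is called on-off here if at least 1 library had 30 or more counts and at least 1 had 0. Of 15816 features with 30 or more counts in some library, 191 were on-off, or 1.21%, and 7 of the 9 members were among them. Gm37240, whose highest count was 30, stood at the edge of this definition, and Pisd-ps1, whose lowest count was 87, was the nearest member outside it. Of the on-off features, 37.8% (71 of 188 with a sequence) had at least 90% of their windows in another gene, against 0.961% (150 of 15614) of the features without a 0. Read the other way, 32.1% of the 221 features with shared sequence were on-off, against 0.751% of the 15581 others. Of all 191 on-off features, 125 were annotated as protein coding and 40 as pseudogenes. The sequence measure was chosen after the counts had been seen, and no test was made of it. The features compared were not matched for their level of counts.

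Presence of the 7 on-off members matched neither treatment, nor region, nor sex in all 24 libraries for any of them. In each of the 7, at least 1 group held both pools with and pools without the feature, and such mixed groups made up 25 of the 72 combinations of the 9 members with the 8 groups. Over all 191 on-off features, 190 had at least 1 mixed group and 1 matched sex throughout, while 0 matched region and 0 matched treatment. Pools also share a number from 1 to 3 across the regions. Pools of the same sex, treatment and number were in the same state, both present or both absent, in 63.1% of 84 pairs of the 7 members, and pools of different number in 66.7% of 168 pairs. Each library had between 4 and 8 of the 9 members present and between 47 and 81 of the 191 on-off features at 0, so no library held all 9 members.

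**Figure D2:**
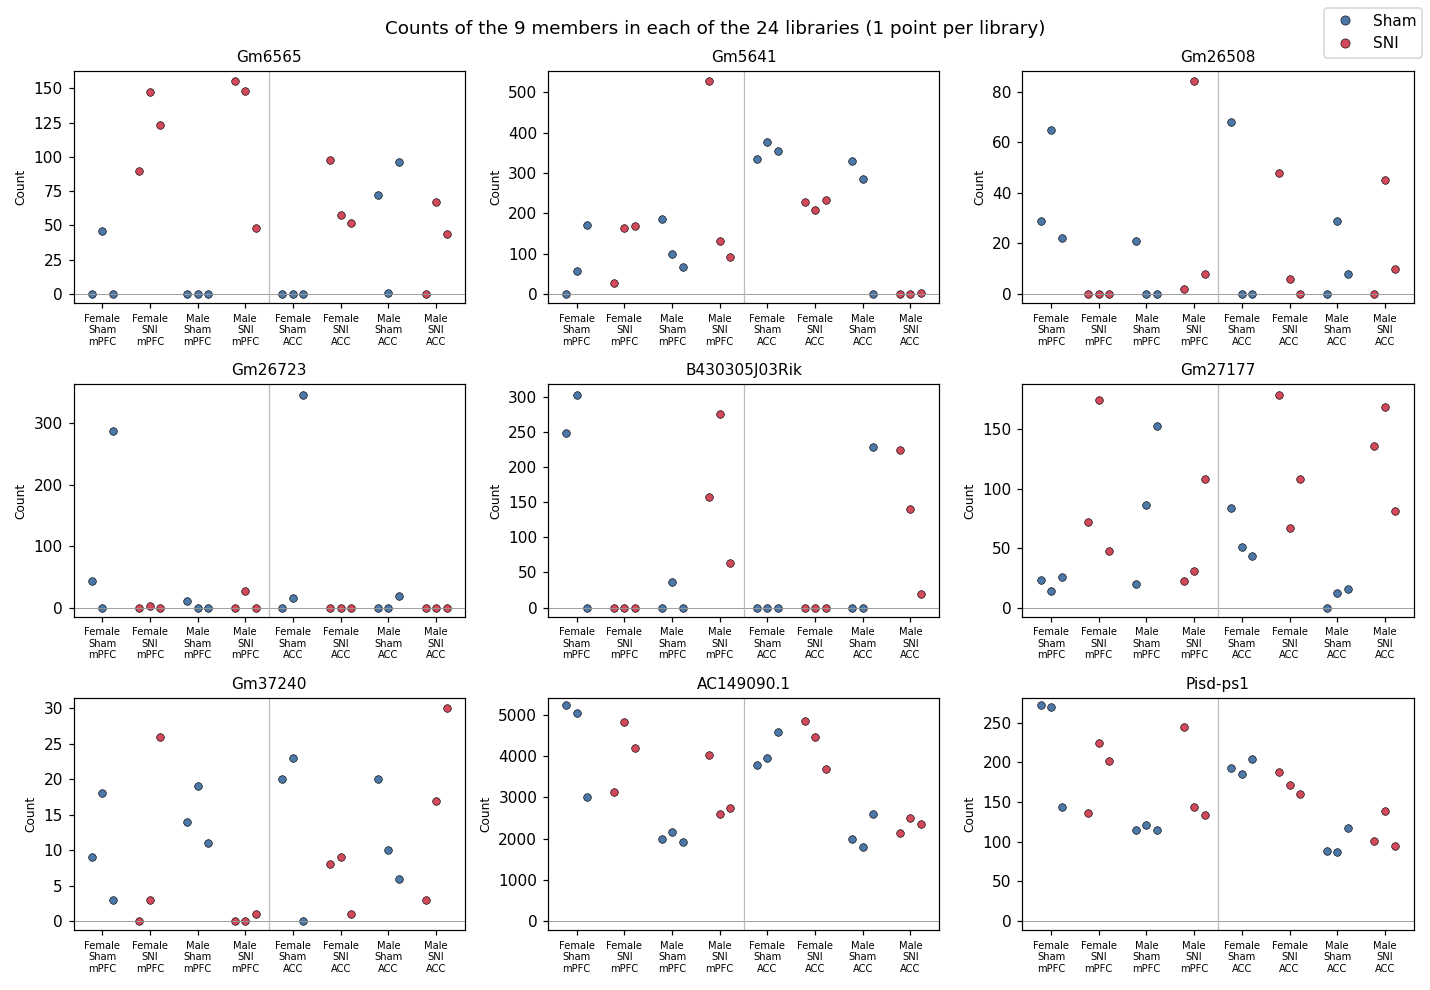
Counts of the 9 members (vertical axes) in each of the 24 libraries, 1 point per library, by group, with sham pools in blue and SNI pools in red and the mPFC left of the grey line. Points of 1 group lie both on 0 and above it in the same panel for 7 members, while AC149090.1 and Pisd-ps1 never fall below 87. For Gm27177 this group is the male sham ACC, with counts of only 0, 12 and 16.

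Gm6565 was the member whose presence went most often with treatment. It was present in 11 of 12 SNI libraries and in 3 of 12 sham libraries. Female mPFC pools after sham surgery had 0, 46 and 0 counts and the SNI pools 90, 147 and 123. Male mPFC pools after sham surgery had 0, 0 and 0 counts and the SNI pools 155, 148 and 48. These groups did not overlap in either sex. Female ACC pools after sham surgery had 0, 0 and 0 counts and the SNI pools 98, 58 and 52, again without overlap. In the ACC of male mice the direction was not kept, with 72, 1 and 96 counts in the sham pools and 0, 67 and 44 in the SNI pools. In bulk tissue, fewer cells of a type and less RNA per cell cannot be told apart, and here neither can be told apart from reads of the parent gene.

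Gm6361, the identical copy on chromosome 15, showed nearly the reverse. Its sham pools had 50, 22 and 76 counts and its SNI pools 0, 0 and 40 in the mPFC of female mice. In the mPFC of male mice they had 192, 84 and 102 against 0, 0 and 60. In the ACC of female mice they had 97, 123 and 138 against 77, 66 and 48, and in the ACC of male mice 60, 91 and 36 against 67, 0 and 22. The 5 libraries without a count of Gm6361 had 67 to 155 counts of Gm6565, and the 10 libraries without Gm6565 had 50 to 192 counts of Gm6361. In 0 libraries were both absent, and in 9 both were present.
The sum of both copies ranged from 50 to 192 counts over the 24 libraries. Sham and SNI pools had 4.64 ± 2.13 and 4.71 ± 0.699 CPM in the male mPFC (SD, n = 3), and 4.66 ± 0.685 and 4.72 ± 0.969 CPM in the female ACC, so the sum differed by less than the spread of the pools where Gm6565 went from 0 to at least 48 counts. For the female mPFC the sum was 2.52 ± 0.615 CPM in sham and 5.07 ± 1.15 CPM in SNI pools. For the male ACC it was 4.43 ± 0.705 CPM in sham and 2.55 ± 0.03 CPM in SNI pools. The parent gene Ube2v2 had 1468 to 2654 counts, and Gm6565 held at most 7.61% of the counts of the pair. In the 4 comparisons of SNI with sham, edgeR's quasi-likelihood test with Benjamini-Hochberg adjustment gave an adjusted p of 0.248 to 0.936 for Ube2v2 and 0.153 to 0.768 for Gm6361. The log2 fold changes of Gm6361 were -1.93 (SE 0.85) in the female mPFC, -2.71 (SE 0.72) in the male mPFC, -1.04 (SE 0.17) in the female ACC and -1.06 (SE 0.74) in the male ACC. Without the filter on low counts Gm6361 was called in the first 3 of these. It was called in the female ACC also by DESeq2 and without sham pool 1 or 2, and in the male mPFC without SNI pool 3. Leaving out SNI pool 3 left the mPFC SNI pools at 0 in both sexes, and the fitted values of -8.64 in female and -10.04 in male mice then depend on the prior count and are no bound. In the male ACC the value was -2.47 without SNI pool 1, -0.47 without SNI pool 2 and -0.63 without sham pool 2.

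**Figure D3:**
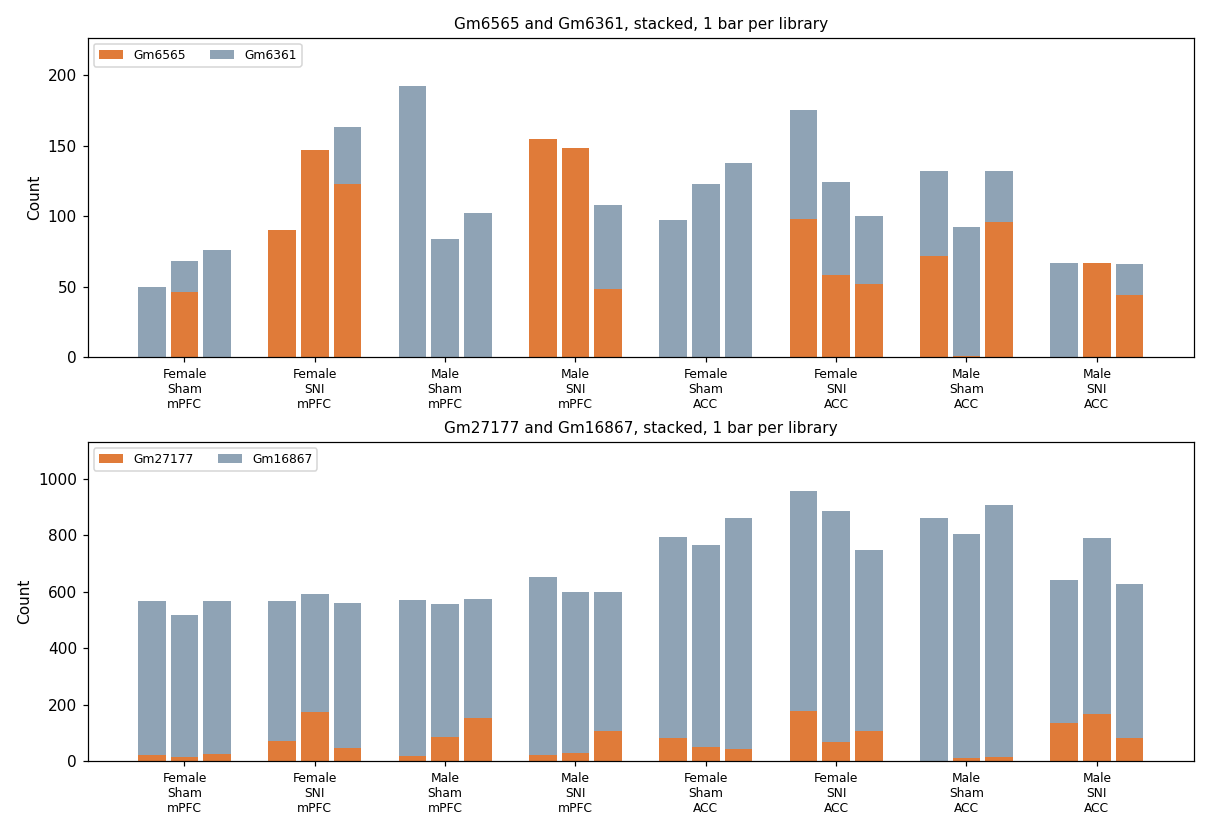
Counts (vertical axes) of Gm6565 stacked with Gm6361 (top) and of Gm27177 stacked with Gm16867 (bottom), 1 bar per library and 3 bars per group. The colours change place between libraries in the top panel, where the bars reach 50 to 192 counts. In the bottom panel the 3 sham bars of the male mPFC reach 556 to 574 counts while the share of Gm27177 in them differs.

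Gm27177, an antisense transcript within the loci of Entpd4b and Loxl2 on chromosome 14, was present in 23 libraries and absent in 1. Female mPFC pools after sham surgery had 23, 14 and 26 counts and the SNI pools 72, 175 and 48. Male mPFC pools after sham surgery had 20, 86 and 153 counts and the SNI pools 22, 31 and 108. The SNI pools were thus all above the sham pools in female mice, and the groups overlapped in male mice. Female ACC pools after sham surgery had 84, 51 and 43 counts and the SNI pools 179, 67 and 108. Male ACC pools after sham surgery had 0, 12 and 16 counts and the SNI pools 136, 169 and 81, which did not overlap.
Gm16867, which contains the sequence of Gm27177 on the same strand, had 418 to 893 counts. The spread of Gm27177 between pools of a group, as the coefficient of variation (CV) of CPM, was 34.2% to 93.8% over the 8 groups, with a median of 54.1%. For Gm16867 the median was 7.79% and for the sum of both 5.16%. In the mPFC of sham male mice, for example, the sum was 556 to 574 counts, with 20 to 153 of them on Gm27177. The sum was 21.4 ± 2.07 and 20.9 ± 0.588 CPM in sham mPFC pools of female and male mice, against 31.5 ± 0.632 and 32.1 ± 1.05 CPM in the sham ACC (SD, n = 3), so its order between the regions was the same in both sexes, unlike that of Gm27177 alone. For the male ACC, Gm16867 had 31.8 ± 0.874 CPM in sham and 21.3 ± 2.29 CPM in SNI pools (log2 difference -0.58, SE 0.09), with an edgeR adjusted p of 0.304, and the sum was 26.3 ± 3.55 CPM in the SNI pools. DESeq2, leaving out the filter and leaving out sham pool 3 each gave a call for Gm16867 there.

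Gm5641, a transcribed processed pseudogene of 1488 bases on chromosome 3 (54481438 to 54482925, plus strand), was present in 19 libraries. Female ACC pools after sham surgery had 335, 376 and 354 counts and the SNI pools 227, 208 and 233, without overlap. Male ACC pools after sham surgery had 331, 284 and 0 counts and the SNI pools 0, 0 and 3. The feature was therefore nearly absent from a whole group and from 1 pool of the group it was compared with. Female mPFC pools after sham surgery had 0, 56 and 172 counts and the SNI pools 27, 163 and 168. Male mPFC pools after sham surgery had 187, 99 and 67 counts and the SNI pools 527, 132 and 93, and the groups overlapped in both sexes.
Hnrnpa3, which holds every window of Gm5641, had 7217 to 11423 counts, and Gm5641 took 0% to 5.08% of the counts of the pair. The edgeR adjusted p of Hnrnpa3 was 0.469 to 0.996 in the 4 comparisons of SNI with sham. Its pool CV had a median of 6.21%, against 74.4% for Gm5641. For the sum of both the median was 6.15%, nearly that of Hnrnpa3 alone. Among the other Hnrnpa3 pseudogenes, Gm11847 had 0 to 30 counts, although 57.4% of the windows of Gm5641 occurred in it.
The study measured Gm5641 and Gm27177 by quantitative PCR as well. The paper states that its quantitative PCR on independent individual samples bore out the sequencing results. The primers for Gm27177 had an exact match in no annotated transcript, and nothing is drawn from this. The primers for Gm5641 are printed because their sequence can be compared in the same way.
Gm5641 forward primer: accgaagagagctgtttcta
Gm5641 reverse primer: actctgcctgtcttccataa
Both primers occurred exactly in Gm5641 and in 5 annotated transcripts of Hnrnpa3, where they enclosed 172 bases with 0 differences from the product of the pseudogene. The same 172 bases lay between them in the pseudogenes Gm11847 and Gm5940.

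B430305J03Rik and the long intergenic non-coding RNAs Gm26723 and Gm26508 were on and off without a common pattern. B430305J03Rik, on chromosome 3 (61362250 to 61365951, minus strand), was present in 8 of 12 male and 2 of 12 female libraries. Female mPFC pools after sham surgery had 249, 303 and 0 counts and the SNI pools 0, 0 and 0. Male mPFC pools after sham surgery had 0, 36 and 0 counts and the SNI pools 158, 276 and 64. The direction of SNI against sham was thus opposite between the sexes in level, though the female groups shared the value 0. In the ACC it was at 0 in all 6 female libraries, and in male mice the sham pools had 0, 0 and 229 counts and the SNI pools 224, 140 and 20. Rap2b, on the other strand, had 1339 to 2298 counts in all libraries, and B430305J03Rik took up to 14.4% of the counts of the pair.
Gm26723, on chromosome 12 (100208988 to 100209814, minus strand), was present in 6 of 12 sham libraries and 1 of 12 SNI libraries. Sham pools of female mice had 44, 0 and 288 mPFC counts, then 0, 15 and 346 ACC counts, where the SNI pools had 0, 3 and 0, then 0, 0 and 0. Those of male mice had 11, 0 and 0 mPFC counts, then 0, 0 and 19 ACC counts, against 0, 27 and 0, then 0, 0 and 0 in the SNI pools. The high counts were those of the sham pools numbered 3 of female mice.
Gm26508, on chromosome 11 (119077573 to 119081865, plus strand), was present in 7 sham and 6 SNI libraries. Female mPFC pools after sham surgery had 29, 65 and 22 counts and the SNI pools 0, 0 and 0. That separation was not seen elsewhere, with 21, 0 and 0 sham counts and 2, 84 and 8 SNI counts in the mPFC of male mice. In the ACC the sham pools had 68, 0 and 0 counts and the SNI pools 48, 6 and 0 in female mice, and 0, 29 and 8 against 0, 45 and 10 in male mice. Whether the counting used strand is not given in the sources used here, and without strand the reads of B430305J03Rik and of Rap2b cannot be told apart.

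Gm37240, annotated across Arfip1 and its neighbours, had the lowest counts, with a highest value of 30. Male mPFC pools after sham surgery had 14, 19 and 11 counts and the SNI pools 0, 0 and 1, without overlap. Female mPFC pools after sham surgery had 9, 18 and 3 counts and the SNI pools 0, 3 and 26, and the groups overlapped. In the ACC the sham pools had 20, 23 and 0 counts and the SNI pools 8, 9 and 1 in female mice, and 20, 10 and 6 against 3, 17 and 30 in male mice. Arfip1, which encodes a protein that binds small GTPases of the Golgi, had 312 to 504 counts.

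A property of the libraries was compared with presence. For each library the deviation of log2 CPM from the mean of all libraries was fitted against the GC content of 12687 genes with at least 50 counts in every library. The slope ranged from -0.156 to 0.184 per 10 percentage points of GC. B430305J03Rik, with a GC content of 57%, was present in the 10 libraries with slopes of 0.012 to 0.184 and absent in the 14 libraries with slopes of -0.156 to 0.009, so the states did not overlap along this axis. With 15121 genes of at least 10 counts the lowest slope with it present was 0.012 and the highest with it absent was 0.002. The gap between the states was narrow, and the slopes also differed between the groups: they were 0.034 to 0.089 in the SNI pools and -0.058 to 0.045 in the sham pools of the male mPFC. Gm5641, with a GC content of 43.8%, was absent in 5 libraries with slopes of 0.012 to 0.184 and present between -0.156 and 0.177. For Gm6565, Gm26508, Gm26723, Gm27177 and Gm37240 the slopes with and without the feature overlapped as well. This relation was looked for after the counts had been seen, and the part of the slope in the differences between groups was not tested.

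**Figure D4:**
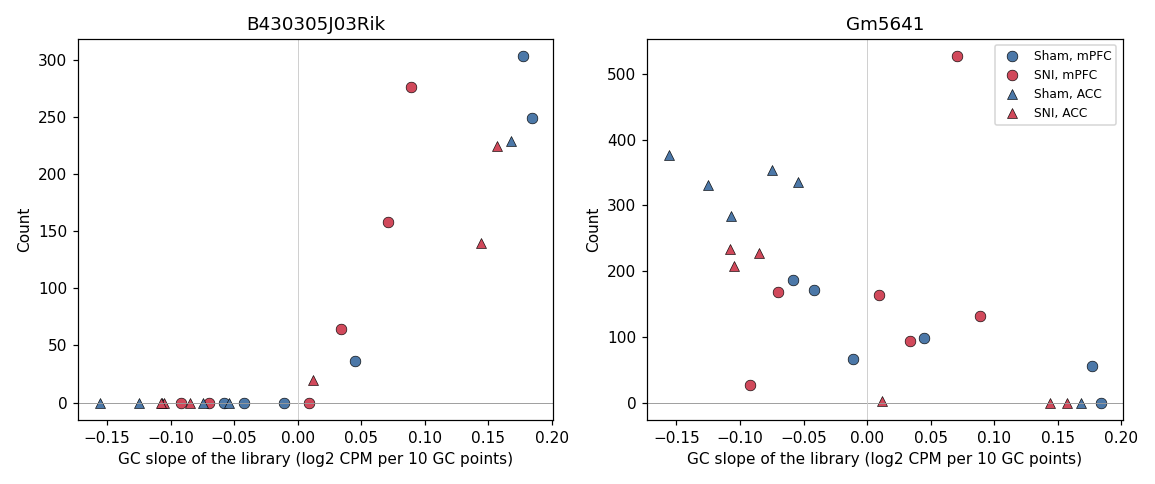
Counts (vertical axes) of B430305J03Rik and Gm5641 against the GC slope of the library (horizontal axis, log2 CPM per 10 percentage points of GC), 1 point per library, with circles for the mPFC, triangles for the ACC, blue for sham and red for SNI. All points of B430305J03Rik above 0 lie at slopes of 0.012 or more, and 4 of the 5 lowest points of Gm5641 lie at 0.144 or more.

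The features most like each member over the 24 libraries, by Pearson's r of log2(CPM + 0.5), were searched among features with at least 30 counts in 3 or more libraries. These r values describe libraries that share depth and composition. B430305J03Rik went most closely with Kifc2 (r = 0.954) and Adgrb1 (r = 0.952), whose GC contents were 59.5% and 63.6%. Gm5641 went with Npm1 (r = 0.868) and Cdc27 (r = 0.867), at 42.4% and 39.9% GC. The other on-off members had weaker relations, with Gm26723 nearest to Fam220a (r = 0.73) and Snhg5 (r = 0.65) and Gm27177 to Gm16835 (r = 0.707) and Plekhs1 (r = 0.644). Gm26508 was nearest to Dctn3 (r = 0.692) and Snhg20 (r = 0.69), Gm6565 to Iqschfp (r = 0.662) and Polr2i (r = 0.628), and Gm37240 to Phykpl (r = 0.616) and Antxr2 (r = 0.611).

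AC149090.1 and Pisd-ps1 behaved differently from the other members. Both belong to the family of Pisd, which encodes the mitochondrial enzyme that makes phosphatidylethanolamine from phosphatidylserine. AC149090.1 lies on the unplaced scaffold JH584304.1 between 52190 and 59690 and had 1796 to 5243 counts. Pisd-ps1 lies on chromosome 11 (3125904 to 3131004, plus strand), 846 bases from Sfi1, and had 87 to 272 counts. They were each other's most similar feature (r = 0.927), the next being Xist for AC149090.1 (r = 0.876) and Gm47283 for Pisd-ps1 (r = 0.847). AC149090.1 had 16.5 to 25.9 counts for each count of Pisd-ps1. Sequence shared by the pair was not measured.
Both were higher in female mice. AC149090.1 was 124 to 200 CPM in the 12 female libraries, with a median of 157, and 70.6 to 122 CPM in the 12 male libraries, with a median of 86, so the sexes did not overlap. Pisd-ps1 was 5.73 to 10.4 CPM in female and 3.22 to 7.38 CPM in male libraries, and these overlapped. The ratio of the female to the male mean was 1.83 for AC149090.1 and 1.64 for Pisd-ps1. For the relatives that the list did not include it was 0.979 (Pisd-ps2) and 0.935 (Pisd), with edgeR adjusted p-values for sham female against sham male of 0.96 and 0.728 (mPFC), then 0.906 and 0.78 (ACC).
Between treatments, both members stood apart in the mPFC of male mice. There AC149090.1 was 73.1, 79 and 71.6 CPM in the sham pools and 122, 94.9 and 102 CPM in the SNI pools, and Pisd-ps1 was 4.23, 4.41 and 4.29 against 7.38, 5.29 and 5.01 CPM, both without overlap. In the mPFC of female mice AC149090.1 was 200, 187 and 124 CPM in the sham pools and 132, 177 and 154 CPM in the SNI pools, which overlapped. In the ACC the group means of AC149090.1 after sham surgery and SNI were 161 ± 9.85 and 155 ± 6.25 CPM in female mice and 79.6 ± 13.6 and 89.3 ± 6.86 CPM in male mice (SD, n = 3). Pisd-ps1 in the female ACC went the other way, at 7.59 ± 0.124 CPM in sham and 6.22 ± 0.318 CPM in SNI pools without overlap, and was not called there or in the male mPFC. In the female mPFC, pool 3 of the sham group stood apart from the other pools of its group for both members, at 124 CPM of AC149090.1 and 5.94 CPM of Pisd-ps1.

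**Figure D5:**
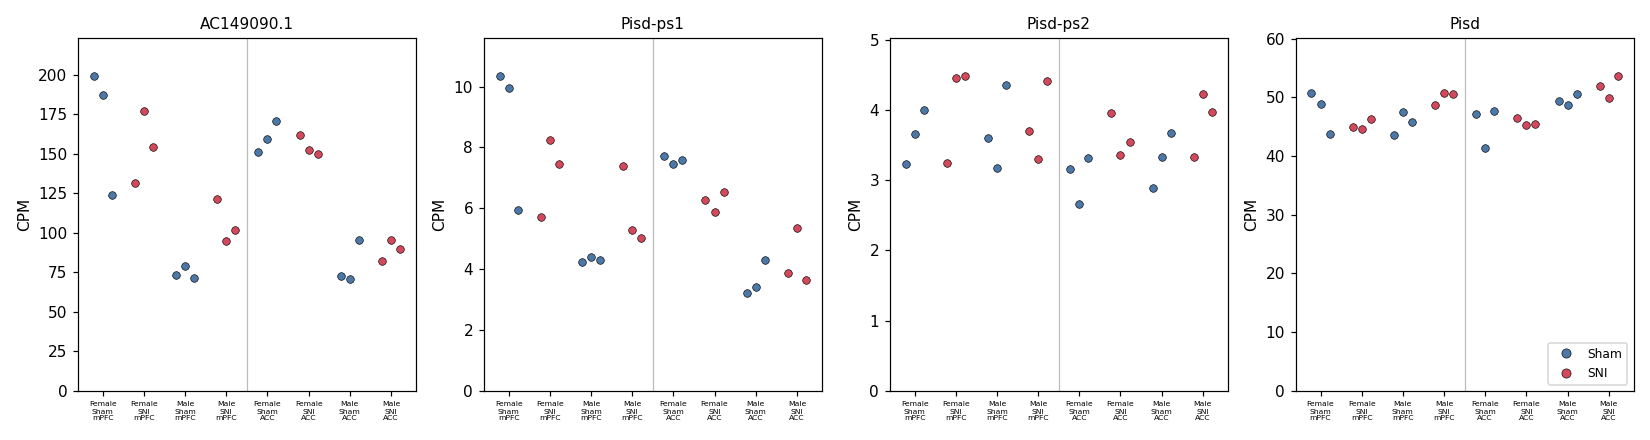
CPM (vertical axes) of AC149090.1, Pisd-ps1, Pisd-ps2 and Pisd in each library, 1 point per library, by group, with sham in blue, SNI in red and the mPFC left of the grey line. The female groups lie above the male groups for AC149090.1, at 124 to 200 against 70.6 to 122 CPM, while Pisd and Pisd-ps2 show no such step.

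The comparisons of the study were refitted here. The number of members past the threshold (false discovery rate, FDR, under 0.1 by edgeR's quasi-likelihood test) is given beside the percentage of all genes tested. Nothing is read from it because the same counts chose the members. The study reported more genes at this threshold in each comparison of SNI with sham. It named Gm5641 in the ACC and B430305J03Rik in the mPFC of both sexes, and Gm26723 in both regions of female mice. In the refit the filter on low counts removed Gm5641 in the male ACC and B430305J03Rik in the female mPFC. It also removed Gm26723 in both female comparisons of SNI with sham, so none of these was tested there. Without the filter each of them was called. In the mPFC of female mice 6 of the 9 members passed the filter on low counts and 1 was called, Gm26508, where 0.00592% of 16897 genes were called. There 3 members did not overlap between the groups, against 15% of the genes. Leaving out pool 3 of the sham group gave 6 called members, leaving out pool 2 gave 3, and leaving out pool 1 or SNI pool 2 or 3 gave 0. In the mPFC of male mice 7 were tested and 4 called, Gm6565, B430305J03Rik and AC149090.1 higher and Gm37240 lower after SNI, where 0.494% of the genes were called. There 5 members did not overlap, against 16.9%, and 2 were called without pool 3 of the sham group and 1 by DESeq2. In the ACC of female mice 5 were tested and 2 called, Gm6565 higher and Gm5641 lower, against 0.024% of the genes. There 3 did not overlap, against 11.8%, and 1 was called without SNI pool 1 or without SNI pool 2. In the ACC of male mice 7 were tested and 0 called by edgeR or by DESeq2, with 1 at an unadjusted p under 0.05, against 0.00599% of the genes called. There 1 member, Gm27177, did not overlap, against 8.2%, and 4 were called without pool 3 and 1 without pool 1 of the sham group. A fit over all 24 libraries together called 0 members in each of these 4 comparisons.
Between the regions after sham surgery, 7 members were tested and 2 called in female mice, Gm5641 and Gm27177, both lower in the mPFC, where 28.5% of the genes were called. There 2 members did not overlap, against 37.7%. In male mice 5 were tested and 1 called, Gm27177, higher in the mPFC, where 14.2% of the genes were called. There 2 members did not overlap, against 28%. In male mice the call of Gm27177 was lost with DESeq2, which called Gm6565, and without mPFC pool 3. In female mice DESeq2 kept the call of Gm27177, and the fit over all 24 libraries lost it. The female call of Gm5641 was lost with DESeq2 and without mPFC pool 2 or ACC pool 2. It was also lost with at least 10 counts required in every library. Between female and male sham mice, 8 members were tested in the mPFC and 6 in the ACC, and AC149090.1 and Pisd-ps1 were called in both, where 0.177% and 0.0958% of the genes were called. There 3 and 5 members did not overlap, against 14.7% and 13.5%. Leaving out pool 3 of the female sham mPFC gave 5 called members between regions in female mice and 6 between the sexes in the mPFC. Between regions in female mice, 1 was called without mPFC pool 2 and 4 without ACC pool 1. Between regions in male mice, 3 were called without ACC pool 3, and 2 without mPFC pool 1, mPFC pool 2 or ACC pool 2. Between the sexes in the mPFC, 1 was called without female pool 1 or without male pool 2 or 3. Between the sexes in the ACC, 1 was called without any 1 of the 3 female pools or without male pool 1. AC149090.1 kept its call between the sexes in both regions whichever pool was left out. Pisd-ps1 kept it in the mPFC only without female pool 3, and in the ACC only without male pool 3.

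The genes around the members were described with the same test. The list held Pisd, Pisd-ps2 and the genes overlapping or next to a member, 36 features in all, of which 20 or 21 were tested in each comparison of SNI with sham. By edgeR 0 of them were called in any of the 4, with 1, 2, 1 and 1 at an unadjusted p under 0.05 in the female mPFC, the male mPFC, the female ACC and the male ACC, and DESeq2 called 0 as well. Their median log2 fold changes were between -0.05 and 0.01. Without pool 3 of the female sham mPFC 2 of them were called in the female mPFC, and without pool 3 of the male sham ACC 1 was called in the male ACC. Rap2b, opposite B430305J03Rik, differed by 0.18 on the log2 scale (SE 0.07, edgeR adjusted p = 0.407) in the female mPFC, where B430305J03Rik was at 0 in all SNI pools. Sfi1, next to Pisd-ps1, had 0.19 (SE 0.07, adjusted p = 0.335) in the male mPFC.
Of 363, 383, 355 and 361 pseudogenes tested in the female mPFC, the male mPFC, the female ACC and the male ACC, 0%, 1.04%, 0.563% and 0% were called by edgeR, against 0.00592%, 0.494%, 0.024% and 0.00599% of all genes tested. The 4 of the male mPFC were Gm6565 and Gm48128, Mid1-ps1 and Ppp1ccb, 2 higher and 2 lower, and those of the female ACC were Gm6565 and Gm5641. Gm6565 and Gm5641 are members chosen on these same counts, so nothing is read from the percentages. The median log2 fold changes of the pseudogenes tested were 0.201, 0.082, 0.015 and -0.036, against -0.003, 0.001, -0.001 and -0.009 for all genes tested.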

How the data were processed

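Total RNA of tissue punches was sequenced as paired-end reads in 24 pools. Per the labels and the methods of the study, the authors trimmed reads (Trimmomatic 0.36), removed Rfam matches (Bowtie2 2.33), aligned to GRCm38 (HISAT2 2.1.0) and counted reads per gene (HTSeq 0.9.1). The deposited values are raw counts of 33364 features. How reads matching several genes were counted, the strand setting and the annotation release are not given in the sources used here. Column names carried sex, treatment and pool number, and the region was taken from the table holding them. Pools of a group differed from each other by more than counting noise, with a mean chi-square per gene of 2.67 to 19.9.

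Each comparison of 3 with 3 libraries was fitted in edgeR 4.0.16 (R 4.3.3) with TMM scaling, the filterByExpr filter and the quasi-likelihood F-test (legacy method), and p-values were adjusted over all genes tested (FDR under 0.1). CPM were computed on TMM-scaled library sizes. All 33364 identifiers were found in GENCODE M21. Windows of 150 bases were matched exactly on either strand, and alignments used blastn 2.17.0. Of the steps, only the quasi-likelihood test was run on simulated counts, made for SNI against sham in the male mPFC. The rule for named genes took all 9 members, the listed relatives and neighbours, and 2 similar features per member, and of the relatives and neighbours the text gives only some by name. Genes sharing windows, the GC slope and the primers were added after seeing the data. Members and lists were chosen with earlier results of these data known. Alternatives were DESeq2 1.42.0, RLE scaling, other filters, the current quasi-likelihood method, a fit over all libraries, a replicate block and leaving out libraries. Floors cover counting error only. Each SE was derived from the log2 fold change and the F statistic of the fit, which takes in the spread between pools. Partner genes of Gm26723 and Gm26508 are not reported here.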

Additional observations from a re-analysis of the deposited data

Results flagged for a closer look

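Gm27177 differed between the regions of sham mice in opposite directions in the sexes. In female mice the mPFC pools had 14 to 26 counts and the ACC pools 43 to 84, so every mPFC pool was lower. In male mice the mPFC pools had 20 to 153 counts and the ACC pools 0 to 16, so every mPFC pool was higher. The call in male mice was lost with DESeq2 and without mPFC pool 3, and with at least 10 counts required in every library, and the call in female mice in the fit over 24 libraries. The difference between the sexes was not tested.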

How the results depend on the processing

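Of 316 alternative values, 240 kept their side or stayed within 1.5 times the reported count. Presence in libraries and the state of same-number pools did so for all 9 members at both other thresholds, as did counts of non-overlapping members on raw counts. Without the low-count filter, members called rose to 6, 8, 4 and 2 for SNI against sham (female mPFC, male mPFC, female ACC, male ACC), to 4 and 4 between regions (female, male) and to 7 and 6 between sexes (mPFC, ACC). With at least 10 counts in every library they were 0, 1 and 1 in the first 3 of these and 1 and 0 between regions, since fewer members were tested. DESeq2 called 2 and 1 in the female and male mPFC. The fit over 24 libraries called 0 in the female mPFC, male mPFC and female ACC, and 2 between regions in male mice. The current quasi-likelihood method called 0 in the female mPFC. The cause of these shifts was not tested.

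Leaving out 1 library gave 0 to 6, 2 to 4, 1 to 2 and 0 to 4 called members for SNI against sham in the order above, 1 to 5 and 1 to 3 between regions, and 1 to 6 and 1 to 3 between sexes. Members not overlapping were then 3 to 6, 5 to 6, 3 to 5 and 1 to 5, then 2 to 5 and 2 to 4, then 3 to 5 and 5 to 6. Shifts of over 1.5 times came without female sham mPFC pool 3 (6 for SNI, 5 for region and 5 for sex, the last also without its pool 2), female sham ACC pool 1 (5 for SNI) and male sham ACC pool 3 (5 for SNI and 4 for region), and male sham ACC pool 2 gave 2 for SNI. Related genes called were 0 to 2 in the female mPFC and 0 to 1 in the male ACC. Where an arm kept 2 libraries, both arms shared 1 estimate of the spread.

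Same-numbered pools correlated at -0.25 to 0.23 in their deviations from group means. In 0 of 8 comparisons did every pool match its own number best. Most of these comparisons set different animals against each other. They cannot decide whether same-numbered mPFC and ACC pools came from the same animals, which the labels do not say. With the replicate block, called members were 1, 5, 2 and 0 for SNI against sham, 2 and 1 between regions, and 4 and 3 between sexes, and Gm6361 was called in the male mPFC (-2.9 on the log2 scale).

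On-off features numbered 1274 at a minimum of 10 counts and 62 at 100. Pseudogenes called without a filter were 79, 32, 28 and 3, and DESeq2 called 2, 2 and 1 in the female mPFC, male mPFC and male ACC. With windows of 100 bases, 43.1% of on-off features had shared sequence. Depth limits absence to 3 counts a library.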
